A study of Mus musculus with 8 samples.

Results

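Chrna3, Chrna4, Chrna5, Chrna6, Chrna7, Chrnb2, Chrnb3 and Chrnb4 encode the neuronal subunits of the nicotinic acetylcholine receptor. These 8 genes, chosen by name, are 8 of the 23481 genes counted in 5740 single nuclei sorted from adult mouse midbrain. Nicotinic receptors are pentameric cation channels of the cell membrane that open when acetylcholine or nicotine binds. An α subunit forms the main face of the binding site, which it completes with a β subunit or, in α7 receptors, with another α7 subunit. Midbrain dopamine neurons are known for receptors that hold α6 and β3 beside β2, and for receptors of α4 and β2 that can take up α5, whereas α3 with β4 is the typical receptor of autonomic ganglia and the medial habenula.

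The study compared dopamine neurons with and without a working Polycomb repressive complex 2 (PRC2), which keeps genes silent by methylating histone H3. Both groups came from mice of the strain DatCreEed aged 8 months, and their genotypes are given as wt and PRC2 mutant. The strain name joins Cre under the dopamine transporter gene with Eed, a core PRC2 subunit. The sources used here do not say whether the wt mice carry Cre, nor on what the nuclei were sorted. Each genotype was 1 library, a pool of 2 female mice and 1 male mouse sequenced over 4 lanes, so the 8 samples are 2 libraries. With 1 library per genotype there is no replicate check and no test, and genotype and library cannot be told apart. All intervals are exact 95% intervals that cover counting error only, and limits for counts of 0 are those of 3 counts.

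The wt library held 1772 nuclei with a median of 21532.5 unique molecular identifiers (UMIs, here also called tags) per nucleus, and the mutant library held 3968 nuclei with a median of 17860. Only 4 cell barcodes occurred in both. A nucleus was counted as a dopamine nucleus when Th, Slc6a3, Slc18a2 and Ddc together reached 5 UMIs per 10000. That gave 1320 of the wt nuclei (74.49%) and 2875 of the mutant nuclei (72.45%), and left 452 and 1093 other nuclei. The rule marks a range of dopamine gene content and not a cell type, although the labels call all nuclei mDA. Between 3 and 5 UMIs per 10000 lay 95 wt and 243 mutant nuclei, and between 5 and 7 lay 59 and 260. Doublets were not removed. The 3′ tags of Eed do not check the genotype, because the sources used here do not name the deleted part of the gene. Eed stood at 21.4 counts per 1000000 UMIs (CPM) in wt and 41.3 in mutant dopamine nuclei, and the library labelled as mutant is called the mutant library below. Hox genes, typical targets of PRC2 silencing, gave a tag in 1 of 1260 wt dopamine nuclei and in 1889 of 2785 mutant ones (67.8%), each thinned to 5000 UMIs.

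What separates α from β subunits can be read in the coding sequence. The lines below give 48 coding bases of each gene from GENCODE M21 transcripts on mm10, aligned at the loop that covers the binding site. Capitals mark the pair of adjacent cysteine codons that defines α subunits.
Chrna3: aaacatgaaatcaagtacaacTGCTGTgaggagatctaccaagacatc
Chrna4: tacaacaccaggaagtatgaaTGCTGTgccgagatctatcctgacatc
Chrna5: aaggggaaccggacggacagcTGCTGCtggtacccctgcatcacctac
Chrna6: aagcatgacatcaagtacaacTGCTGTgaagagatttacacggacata
Chrna7: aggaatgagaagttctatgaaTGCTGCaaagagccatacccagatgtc
Chrnb2: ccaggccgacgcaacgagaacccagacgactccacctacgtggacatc
Chrnb3: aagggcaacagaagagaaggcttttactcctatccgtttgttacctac
Chrnb4: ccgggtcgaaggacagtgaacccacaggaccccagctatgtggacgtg
The cysteine pair stands in all 5 α genes and in none of the 3 β genes. Over the translated proteins, Chrna5 and Chrnb3 were the most alike pair, with 68.1% identical residues. Chrnb2 and Chrnb4 shared 63.9%, Chrna3 and Chrna6 62.7%, and Chrna7 shared between 37.4% and 41.3% with each of the others. By protein sequence Chrna5 thus lies closest to a β subunit, and both Chrna5 and Chrnb3 are known as accessory subunits.

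Of the 8 genes, 5 lie in a pair of clusters. Chrnb3 (chr8:27368711-27399730, plus strand) and Chrna6 (chr8:27403212-27413944, minus strand) face each other tail to tail with 3481 bases between them. Chrna5 (chr9:54980880-55007779, plus strand), Chrna3 (chr9:55010111-55026562, minus strand) and Chrnb4 (chr9:55028154-55048779, minus strand) are separated by 2331 and 1591 bases. Chrna4 (chr2:181018380-181043546), Chrna7 (chr7:63098692-63212569) and Chrnb2 (chr3:89746195-89764632), all on the minus strand, stand alone. Chrnb2 overlaps Adar on the opposite strand, and the sources used here do not say if counting used strand, so reads of Chrnb2 and Adar may not be told apart. The RefSeq promoter table (GRCm38.p6) matched 6 of the 8 genes by symbol. Within 300 bases around their starts these promoters held 33 CpG in Chrna4, 35 in Chrna7, 18 in Chrna3, 14 in Chrnb4, 12 in Chrnb2 and 5 or 25 at the alternative starts of Chrna5, against a median of 7 over 32851 promoters.

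In wt midbrain, Chrna6, Chrnb3, Chrna5 and Chrna4 were the subunit genes called higher in dopamine nuclei than in the other nuclei. The same 4 genes were called higher in dopamine nuclei of the mutant library. Chrna3 also stood higher in dopamine nuclei of both libraries, but under the rule given next it was not called. A difference was called at 1.5-fold after adding 5 CPM to both levels, where both groups together held at least 50 UMIs of the gene. Chrnb4 missed that minimum, so 7 members were measured. In the wt library 4 of 7 were called higher and 0 lower in dopamine nuclei, beside 3.4% of 14383 measured genes called higher and 8.2% called lower (11.6% in all). The mutant library also had 4 of 7 higher and 0 lower, beside 2.93% and 4.93% of 15974 genes (7.86% in all). The members' median log2 ratio was 0.96 in wt and 0.60 in mutant nuclei, against medians of -0.06 and -0.02 over all genes. No member belongs to the rule that splits the nuclei, but the nuclei of both classes share a library.

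Chrna6, the α subunit most restricted to catecholamine neurons, stood at 58.1 CPM (2289 UMIs) in wt dopamine nuclei and 7.82 CPM (56 UMIs) in the other wt nuclei, a ratio of 7.43 (5.70 to 9.86). Mutant levels were 44.2 and 9.20 CPM, 4.81-fold apart (4.13 to 5.62). Both dopamine classes stood above both other classes with no overlap of intervals. Chrnb3, its neighbour and partner subunit, stood at 150.6 CPM in wt dopamine nuclei against 21.1 in other nuclei, a ratio of 7.14 (6.07 to 8.44). Its mutant levels were 121.7 against 31.3 CPM, 3.88-fold apart (3.58 to 4.22). For both genes the order of the 4 levels was wt dopamine, mutant dopamine, mutant other and wt other, and the last pair was apart in its intervals for Chrnb3 and not for Chrna6.

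Chrna4 and Chrna5, whose products share receptors with β2, had the same direction at lower ratios. Chrna4 stood at 25.7 CPM in wt dopamine nuclei and 5.87 in other nuclei, a ratio of 4.38 (3.22 to 6.11), and in mutant nuclei at 27.6 and 10.1 CPM, 2.73-fold apart (2.36 to 3.18). Chrna5 stood at 7.41 and 1.40 CPM in the wt library (5.31-fold, 2.84 to 11.2) and at 6.14 and 2.36 CPM in the mutant library (2.60-fold, 1.91 to 3.60). The other nuclei of the wt library gave only 10 UMIs of Chrna5.

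Chrna7, Chrnb2, Chrna3 and Chrnb4 were not called higher in dopamine nuclei of either library. Chrna7, which forms receptors on its own in many kinds of neurons, stood at 83.9 CPM in dopamine and 72.5 CPM in other wt nuclei, 1.16-fold (1.05 to 1.27). Mutant levels were 57.1 and 65.3 CPM, so it was 1.14-fold lower in dopamine nuclei (1.07 to 1.22). Chrnb2, the β subunit that most brain receptors share, stood at 6.02 against 6.01 CPM in wt and 7.39 against 7.30 CPM in mutant nuclei. Its intervals of the ratio, 0.721 to 1.42 in wt and 0.839 to 1.23 in mutant, leave room for differences in either direction. Chrna3 stood at 4.47 against 1.54 CPM (2.91-fold, 1.59 to 5.93) in wt and 5.43 against 2.98 CPM (1.82-fold, 1.38 to 2.44) in mutant nuclei, and stayed within 1.5-fold once 5 CPM were added. With 1 CPM added in place of 5, Chrna3 passed the limit in both libraries (log2 ratios of 1.11 and 0.69), and with 20 CPM Chrna5 missed it in both (0.36 and 0.22). Chrnb4 gave 4 UMIs in wt dopamine nuclei and 17 in mutant ones, and 2 and 12 in the other nuclei.

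**Figure D1:**
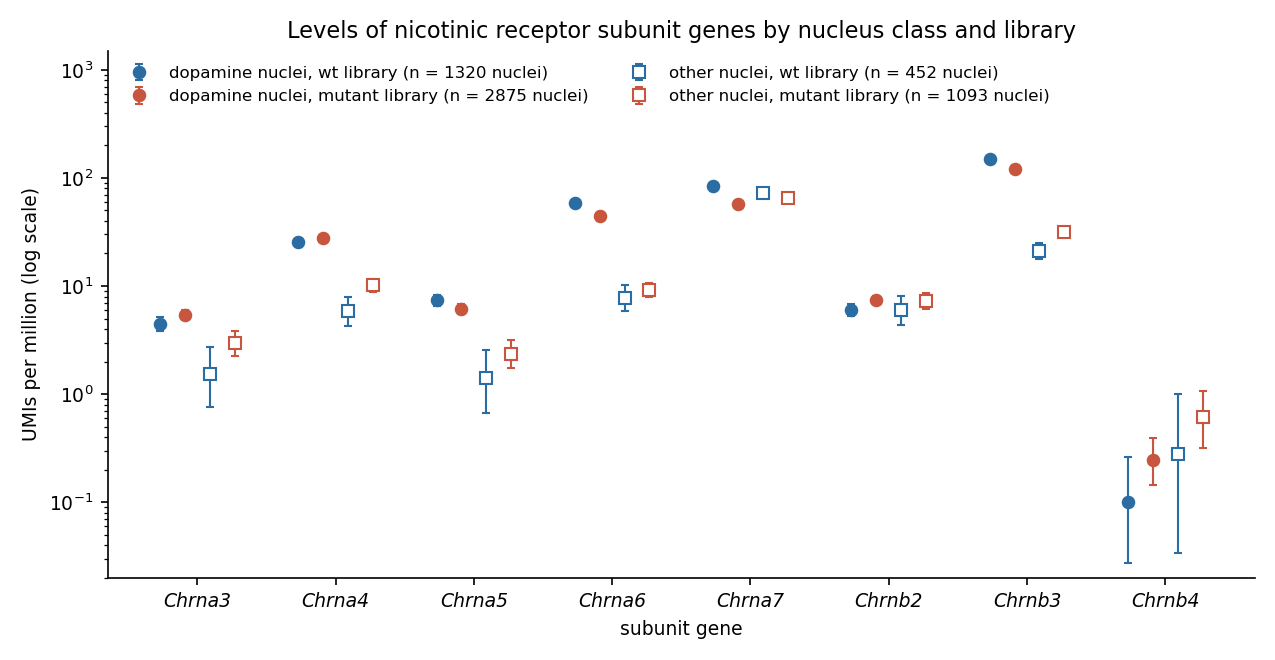
Levels of the 8 subunit genes in CPM (log axis) in dopamine nuclei (filled circles) and other nuclei (open squares) of the wt (blue) and mutant (red) library, 1 library per genotype, with exact Poisson 95% intervals. Chrna6, Chrnb3, Chrna5, Chrna4 and Chrna3 lie higher in dopamine nuclei of both libraries, and of these only Chrna3 was not called. Chrna7 lies between 57.1 and 83.9 CPM and Chrnb2 between 6.01 and 7.39 CPM in all 4 classes.

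The other nuclei differed among themselves in Chrnb3 far more than in Chrna7. Nuclei with at least 2 UMIs per 10000 of GABAergic markers (95 wt and 326 mutant nuclei) held Chrnb3 at 29.6 CPM in wt and 49.1 in mutant. Nuclei gated in the same way on glutamatergic markers (38 and 131) held it at 6.24 and 8.66 CPM. Those gated on astrocyte markers (88 and 166) held Chrnb3 at 40.5 and 25.6 CPM. Those gated on oligodendrocyte markers (88 and 135) held it at 21.8 and 49.0 CPM. Levels like those of the GABAergic-like nuclei were thus also found in nuclei with glial markers. The corresponding levels of Chrna7 were 77.5 and 70.0 CPM in GABAergic-like and 57.4 and 54.0 CPM in glutamatergic-like nuclei. These gates are ranges of marker content, as is the dopamine rule. The nuclei just under that rule, at 3 to 5 UMIs per 10000, still held Chrnb3 at 54.9 CPM in wt and 88.3 in mutant and Chrna6 at 19.2 and 21.4. Just above the rule, at 5 to 7, Chrnb3 stood at 43.1 and 88.5 CPM and Chrna6 at 20.6 and 30.2, so the level of Chrnb3 was close on both sides of the limit.

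Tags in nuclei that should lack these genes were read from nuclei gated on oligodendrocyte markers. At the first gate, 2 UMIs per 10000, these held tags of the subunit genes. Among its 88 wt and 135 mutant nuclei, with median depths of 5855.5 and 9627 UMIs, Chrnb3 was tagged in 13.6% and 19.3%, Chrna7 in 21.6% and 29.6%, and Chrna6 in 4.55% and 8.15%. Chrna7 there stood at 77.3 and 66.4 CPM, about its level in the other classes. Whether these are tags of free RNA or of mixed droplets was not tested.

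A stricter gate of 50 UMIs per 10000, set after the data were seen, held 41 wt and 50 mutant nuclei with medians of 3490 and 3451.5 UMIs. Chrna6 was then tagged in none, Chrnb3 in 1 nucleus of each library (2.44% and 2%), Chrna7 in 0 and 2, Chrna4 in 0 and 2, and Chrna5 in 0 and 1. Thinned to 2000 UMIs, 34 wt nuclei of this gate held no tag of any member, and 42 mutant nuclei held 1 tag of Chrna4. A count of 0 allows 3 nuclei, a share of up to 8.82% of 34 and 7.14% of 42. At that depth the dopamine nuclei lay above this limit for Chrnb3 (22.3% in wt and 20.8% in mutant), Chrna7 (13.9% and 11.3%) and Chrna6 (10.7% and 8.85%). For Chrna4 (4.82% and 5.51%) and the remaining 4 genes they lay under it, so these shares cannot be told apart from free RNA by this comparison.

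Without thinning, a tag of Chrnb3 was present in 75.2% of wt and 73.7% of mutant dopamine nuclei, of Chrna7 in 64.3% and 51.3%, of Chrna6 in 60.7% and 49.7%, and of Chrna4 in 45.5% and 41.7%. Shares for Chrnb2 were 15.9% and 14.7%, for Chrna5 14.2% and 10.8%, for Chrna3 10.8% and 9.77%, and for Chrnb4 0.303% and 0.522%. Since wt dopamine nuclei were deeper (median 24257.5 against 19023 UMIs), each nucleus was thinned to 5000 UMIs, which left out 60 wt and 90 mutant nuclei. Chrna7 then gave a tag in 28.3% of wt (25.9 to 30.9) and 23.2% of mutant nuclei (21.6 to 24.8), and Chrna6 in 23.6% (21.3 to 26.0) and 19.2% (17.7 to 20.7). Chrna3 went the other way, with 12 nuclei or 0.952% (0.493 to 1.66) in wt and 68 nuclei or 2.44% (1.90 to 3.09) in mutant. At this depth, in a single draw of the thinning, the intervals of these 3 genes did not overlap between libraries. The share of all genes with such intervals is not given here, so the count is not read as a result about the members. With thinning to 10000 UMIs the shares of Chrna3 were 3.28% (2.33 to 4.48) and 4.55% (3.74 to 5.47), which overlap. Shares of Chrnb3 (44.6% and 41.2%), Chrna4 (11.7% and 13.1%), Chrna5 (2.78% and 2.59%), Chrnb2 (3.49% and 3.55%) and Chrnb4 (0.0794% and 0.108%) had overlapping intervals.

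Most thinned dopamine nuclei held a tag of few subunits. None of the 8 genes was tagged in 26.7% of wt and 30.8% of mutant nuclei, 1 gene in 40.2% and 41.0%, 2 genes in 24.5% and 21.3%, and 3 genes in 7.94% and 5.96%. Without thinning the median was 3 subunit genes per nucleus in both libraries. The mix of subunits in a single receptor cannot be read from tags, which count RNA in the nucleus.

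Dopamine nuclei with a Chrna6 tag held a Chrnb3 tag more often than those without, in both libraries. In wt nuclei thinned to 5000 UMIs, Chrnb3 was tagged in 172 of 297 nuclei with a Chrna6 tag, 57.9% (52.1 to 63.6), and in 390 of 963 nuclei without one, 40.5% (37.4 to 43.7). The difference was 17.4 percentage points (10.8 to 23.9). Among mutant nuclei the shares were 50.7% (46.4 to 55.1) of 534 nuclei and 39.0% (36.9 to 41.0) of 2251, a difference of 11.8 points (7.0 to 16.6). Both tags were present in 13.7% of wt and 9.73% of mutant nuclei.

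Within bins of the rule genes the difference had the same direction. Among wt nuclei with 20 to 40 UMIs per 10000 of the rule genes it was 14.7 points (6.68 to 22.5), and among mutant nuclei of that range 5.07 points (-5.66 to 15.8), an interval that holds 0. Among mutant nuclei with 5 to 10 UMIs per 10000 it was 14.1 points, and with 10 to 20 it was 12.4 in mutant and 16.1 in wt. These bins were added after the data were seen. In the other nuclei of the mutant library, 17 of 42 nuclei with a Chrna6 tag held Chrnb3 (40.5%), against 79 of 851 without one (9.28%). In the wt library it was 3 of 11 against 24 of 315, with an interval of the difference that holds 0 (-1.88 to 53.5). The other nuclei mix classes. Without thinning, the 243 mutant ones at 3 to 5 UMIs per 10000 held Chrnb3 in 49.4% and Chrna6 in 20.6%. The part of this mix was not tested.

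**Figure D2:**
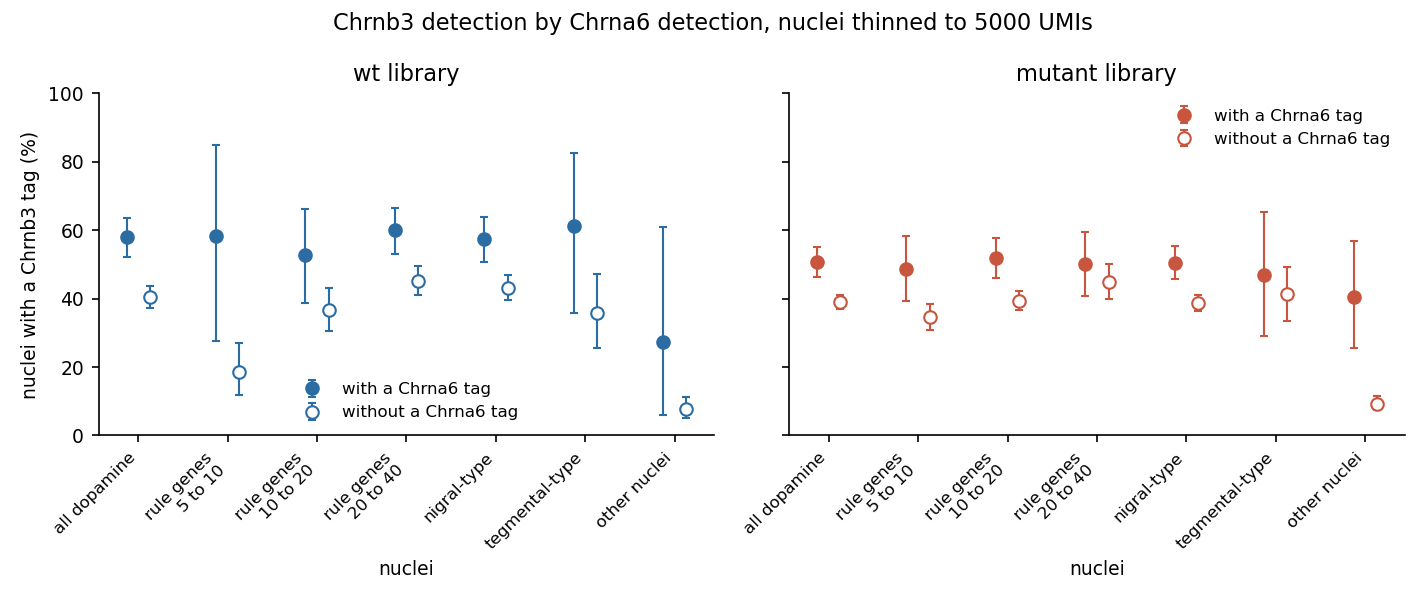
Share of nuclei with a Chrnb3 tag (percent, exact binomial 95% intervals) among nuclei with (filled) and without (open) a Chrna6 tag, thinned to 5000 UMIs, for all dopamine nuclei, bins of the rule genes in UMIs per 10000, nigral-type and tegmental-type nuclei and other nuclei. In all dopamine nuclei the filled points lie at 57.9% in wt and 50.7% in mutant, above the open points at 40.5% and 39.0%.

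The other pairs, of 11 ordered pairs computed, showed smaller or wider differences. Among wt nuclei with a Chrna4 tag 33.8% held Chrna6, against 22.2% of those without, a difference of 11.6 points (3.59 to 20.1); in the mutant library the difference was 0.697 points (-3.59 to 5.43). Chrna5 with Chrna4 gave 14.4 points in wt (1.01 to 32.0), from 35 nuclei with a Chrna5 tag. In the mutant library this pair gave 6.54 points (-1.95 to 17.6), from 72 such nuclei. For Chrnb3, a tag of Chrna4 changed the share by -3.84 points in wt and 1.88 in mutant. A tag of Chrna3 changed it by -11.4 and -10.6 points. The intervals of these differences for Chrnb3 all hold 0. A tag of Chrna7 changed the share with Chrna6 by -1.62 points in wt and 1.84 in mutant, and the share with Chrnb3 by -0.0912 and 2.97 points. Chrna3 and Chrna5, neighbours on chromosome 9, were tagged together in 1 wt and 2 mutant nuclei.

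Across 18 classes of nuclei, 8 of them wt, the level of Chrna6 followed that of Chrnb3 with a Pearson r of 0.92 on log2(CPM + 5). Chrna4 followed Chrnb3 with r = 0.88 and Chrna5 with 0.81, while Chrna6 with Chrna7 gave 0.47 and with Chrnb2 0.11. Among 11615 genes with at least 500 UMIs, those most like Chrna6 included Ntf3 and Erc2 (0.98 each), 1700042O10Rik and Th (0.97 each). Those most like Chrnb3 were Cnpy1 (0.95), Ret and B3galt1 (0.94 each), Th and Trpc6 (0.93 each), and those most like Chrna4 were Ret (0.96), Nos1ap (0.94), Msh3 and Atp6ap2 (0.93 each) and 9030622O22Rik (0.92). For Chrna5 they were Nrxn3 (0.88), Hdac9 (0.87), 9530059O14Rik (0.85), Gm7694 and Ccdc28a (0.84 each). The classes share libraries and depth and were split in part on Th, so these values describe the classes only.

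Within wt dopamine nuclei Chrna5 and Chrna7 were the subunit genes called between subtypes, and in the mutant library none was called. Nuclei that held tags of more genes from a list of 8 substantia nigra markers (Sox6, Aldh1a1, Anxa1, Ndnf, Vcan, Agtr1a, Igf1, Kcnj6) than from a list of 8 ventral tegmental markers (Calb1, Otx2, Neurod6, Tacr3, Lpl, Adcyap1, Grp, Cck) were counted as nigral-type. There were 949 such wt and 2151 mutant nuclei, 99 and 192 of the reverse, tegmental-type, and 212 and 442 ties. The split leans on Kcnj6, tagged in 88.17% of wt nuclei, and a nucleus with no list gene but Kcnj6 was nigral-type. Of the tegmental list, Calb1 was tagged in 29.05% and Tacr3 in 26.59%, while Otx2 was tagged in 3.73% and Neurod6 in 1.19%. Slc17a6, a glutamatergic marker, stood at 20.77 CPM in nigral-type and 54.6 in tegmental-type wt nuclei, and at 25.05 and 65.43 CPM in the mutant library. Its part in the subunit differences was not tested.

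Chrna5 stood at 8.53 CPM (267 UMIs) in nigral-type and 1.65 CPM (4 UMIs) in tegmental-type wt nuclei, 5.16-fold higher (1.99 to 19.1). Mutant levels were 6.45 and 6.13 CPM, 1.05-fold (0.695 to 1.66). The wt contrast rests on 4 UMIs in the tegmental-type nuclei. Chrna7 went the other way, at 74.1 CPM in nigral-type and 128.6 in tegmental-type wt nuclei, 1.74-fold lower (1.54 to 1.95), and at 51.4 and 75.4 CPM in the mutant library, 1.47-fold lower (1.30 to 1.65). Of 7 measured members 1 was called higher and 1 lower in nigral-type wt nuclei, beside 3.4% and 3.89% of 13511 genes (7.29% in all). Between the mutant subtypes 0 of 7 were called, beside 2.23% higher and 2.74% lower of 14870 genes (4.97% in all).

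The remaining members stood closer together between the subtypes. Chrnb3 was 1.30-fold higher in nigral-type wt nuclei (152.9 against 117.9 CPM, interval 1.15 to 1.47) and 1.06-fold in the mutant library. Chrna4 was 1.49-fold higher in wt (27.1 against 18.2 CPM, 1.10 to 2.07), whereas in the mutant library it stood at 27.3 and 31.4 CPM. Chrna6 stood at 58.4 and 54.2 CPM in wt and 44.5 and 36.8 in mutant nuclei. Chrna3 stood at 5.11 and 2.48 CPM in wt and 5.91 and 2.3 in mutant nuclei, a ratio in the mutant library of 2.57 (1.34 to 5.67) that stayed within 1.5-fold once 5 CPM were added. Chrnb2 stood at 6.01 and 4.96 CPM in wt and 7.62 and 6.65 in mutant nuclei.

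A finer view came from 8 groups of genes that mark subsets of these dopamine neurons and were taken from earlier results of the same data, so they are descriptions. For each group the dopamine nuclei at or above the 90th percentile of the 1260 wt dopamine nuclei with at least 5000 UMIs were compared with the other dopamine nuclei of their library at that depth. The groups overlap, and they held 126 wt nuclei each. The limit was only 0.523 UMIs per 10000 for Eya1 and Neurod6 and 1.23 for Calcr, Npsr1 and Nos1, against 9.53 for Ebf2, Adam12 and Htr2c. At the low limits a few tags sufficed, so being high in such a group depends in part on depth. Nuclei high in Cgnl1, Etv1 and Pde11a had the highest Chrna7 of the 8 wt groups, 165.8 against 76.5 CPM in the rest (2.17-fold, 1.98 to 2.38). The 239 mutant nuclei of that group had 107.3 against 53.4 CPM (2.01-fold, 1.83 to 2.20). Chrnb3 was also higher in them, 205.1 against 145.7 CPM in wt and 201.7 against 115.8 in mutant, while Chrna3 was at 0.595 against 4.85 CPM in wt, from 2 UMIs.

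Nuclei high in Sema5b and Sulf1 had the lowest Chrna6 and Chrnb3 of the wt groups. Chrna6 stood at 26.7 against 60.5 CPM, Chrnb3 at 64.8 against 157.1, and Chrna5 at 0.370 against 7.93, from 1 UMI. In the 203 mutant nuclei of that group Chrna6 stood at 27.8 against 44.9 CPM and Chrnb3 at 101.7 against 122.8. Chrna6 was thus at nearly the same level in the Sema5b and Sulf1 nuclei of both libraries, and Chrnb3 was higher in those of the mutant library. Nuclei high in Glra2 and Nt5e combined higher Chrna7 (137.1 against 79.5 CPM in wt, 88.5 against 56.3 in mutant) with lower Chrnb3 (84.7 against 156.6, and 85.4 against 122.8).

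Nuclei high in Ndnf and Anxa1, markers of a ventral tier of the nigra, had the highest Chrna5 of the wt groups, 14.3 against 6.56 CPM (2.19-fold, 1.63 to 2.91), and Chrna3 at 7.64 against 4.09 CPM. Only 61 mutant nuclei reached the wt limit of this group, with Chrna5 at 8.79 against 6.12 CPM (1.44-fold, 0.684 to 2.67). Nuclei high in Ebf2, Adam12 and Htr2c had lower Chrna4, 16.1 against 26.7 CPM in wt and 17.5 against 28.4 in mutant. Those high in Otx2os1 and Klhl14 had higher Chrna7, 134.4 against 80.6 CPM and 81.6 against 55.5. Those high in Calcr, Npsr1 and Nos1 had lower Chrnb3, 96.1 against 156.9 CPM in wt. The nuclei high in Eya1 and Neurod6 had lower Chrna4, 20.4 against 26.2 CPM in wt (1.29-fold lower, 1.01 to 1.66) and 19.99 against 28.7 in mutant (1.44-fold lower, 1.22 to 1.70), and a wt ratio of 1.05 for Chrna6 and 0.95 for Chrnb3.

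**Figure D3:**
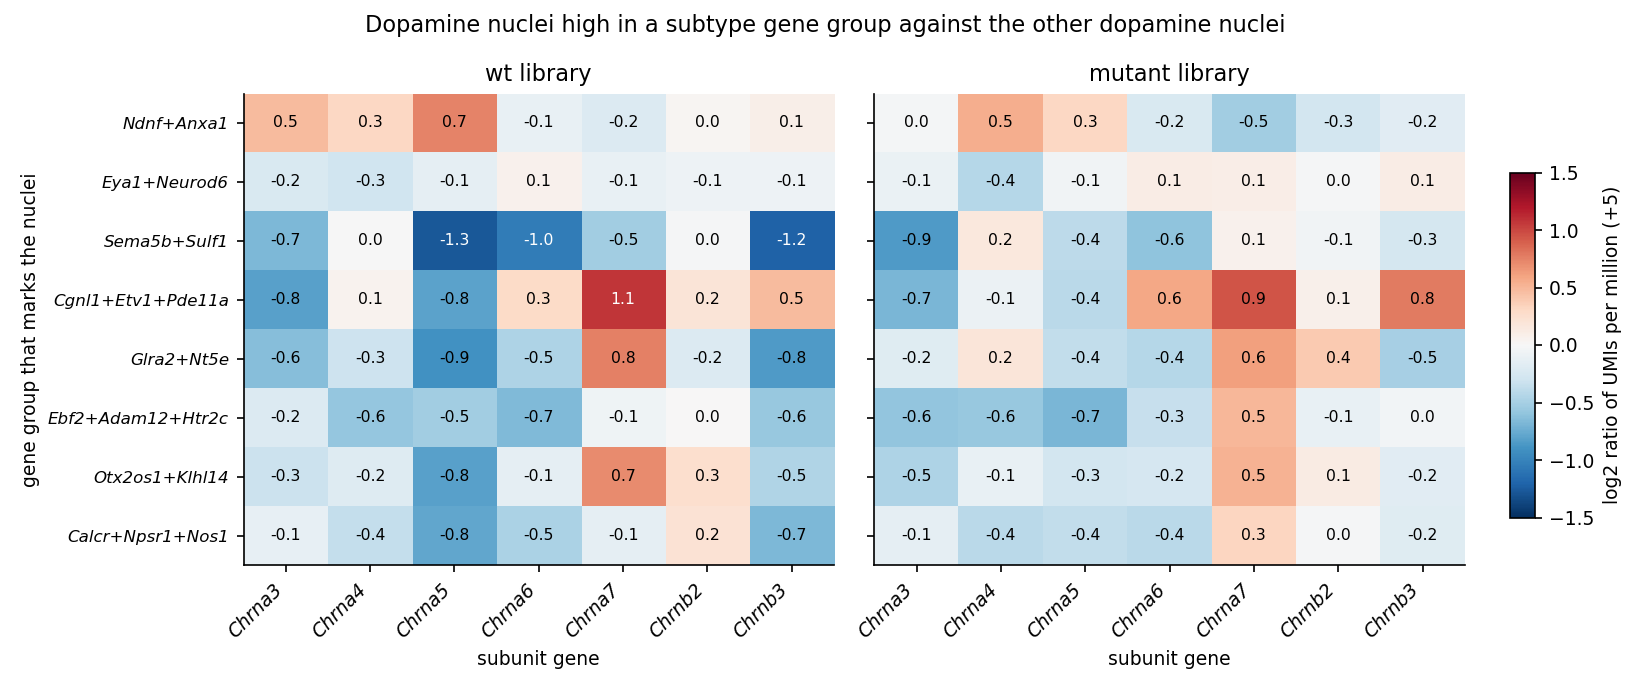
Log2 ratio of levels, with 5 CPM added, between dopamine nuclei high in each of 8 gene groups and the other dopamine nuclei of their library, for the 7 measured subunit genes in the wt (left) and mutant (right) library. Chrna7 is highest in the Cgnl1, Etv1 and Pde11a nuclei of both libraries (165.8 and 107.3 CPM), and Chrna6 and Chrnb3 are lowest in the Sema5b and Sulf1 nuclei of the wt library.

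Between genotypes, dopamine nuclei of the mutant library held less Chrna7, Chrna6, Chrnb3 and Chrna5 RNA and more Chrnb2 and Chrna3 than wt dopamine nuclei, all by less than the 1.5-fold limit. Of 7 measured members 0 were called higher and 0 lower, beside 1.99% of 16324 genes called higher and 1.46% called lower (3.45% in all). The members' median log2 ratio was -0.16, and that of all genes 0.02.

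The largest difference was that of Chrna7, at 83.9 CPM (3306 UMIs) in wt and 57.1 CPM (3927 UMIs) in mutant dopamine nuclei, 1.47-fold lower (1.40 to 1.54). Chrna6 stood at 58.1 and 44.2 CPM, 1.31-fold lower (1.24 to 1.39), and Chrnb3 at 150.6 and 121.7 CPM, 1.24-fold lower (1.2 to 1.28). The gene pair of chromosome 8 thus differed by similar ratios, and none of these intervals reaches 1. Chrna5 stood at 7.41 and 6.14 CPM, 1.21-fold lower (1.04 to 1.41). Chrnb2 stood at 6.02 and 7.39 CPM, 1.23-fold higher (1.05 to 1.44), and Chrna3 at 4.47 and 5.43 CPM, 1.21-fold higher (1.01 to 1.46). Chrna4, at 25.7 and 27.6 CPM, had an interval from 0.996 to 1.16, and Chrnb4, with 4 and 17 UMIs, one from 0.794 to 9.95.

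The genes that choose the dopamine nuclei were themselves lower in the mutant library, and a rule built on them reads the libraries unequally. Th stood at 178.1 CPM in wt and 74.8 in mutant dopamine nuclei (2.38-fold lower), Slc6a3 at 489.9 and 191.3 (2.56-fold lower), Slc18a2 at 779.2 and 308.6 (2.53-fold lower) and Ddc at 1004 and 794.6 (1.26-fold lower). The median of the 4 genes together was 24.32 UMIs per 10000 in wt and 13.66 in mutant dopamine nuclei. The GABAergic markers Gad1, Gad2 and Slc32a1 summed to 33.97 CPM in wt and 178.8 in mutant dopamine nuclei, with none of the 3 at 0. The 4 astrocyte markers summed to 230.8 and 292.6 CPM and the 5 oligodendrocyte markers to 167.4 and 144.5, also with none at 0. The part of these markers in the subunit differences was not tested.

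Compared at like levels of the rule genes, only Chrna7 among these genes stood lower in the mutant library in each of 3 bins. Its levels in wt and mutant nuclei were 87.5 and 65.4 CPM at 5 to 10 UMIs per 10000, 91.0 and 54.7 CPM at 10 to 20 (1.66-fold lower), and 81.1 and 49.8 CPM at 20 to 40 (1.63-fold lower). The bins held 143, 317 and 802 wt and 775, 1589 and 504 mutant nuclei. Because the rule genes were themselves lower in the mutant library, nuclei of the same bin need not be like nuclei. Chrna6 stood at 18.7 and 34.3 CPM in the lowest bin (1.84-fold higher in mutant, 1.38 to 2.50), 40.8 and 46.1 in the middle bin, and 67.3 and 58.5 in the highest. Chrnb3 went the same way, at 54.6 and 104.1 CPM (1.91-fold higher, 1.61 to 2.27), 114.0 and 124.0, then 171.0 and 152.8. For Chrna6 and Chrnb3 the direction therefore turned between the lowest and the highest bin, and both genes were spread over a narrower range of levels in the mutant library.

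Chrna4 stood at 10.5 and 25.1 CPM in the lowest bin (2.39-fold higher in mutant, 1.64 to 3.64), 22.2 and 28.7 in the middle, and 27.8 and 28.7 in the highest. The wt levels of Chrna4 differed between the bins more than the mutant levels did. Chrna5 stood at 2.26 and 6.84 CPM in the middle bin (3.02-fold higher, 1.94 to 4.96) and at 9.65 and 5.57 CPM in the highest (1.73-fold lower). Chrna3 was higher in the mutant library in all 3 bins, with 3.23 and 5.73 CPM in the middle one.

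**Figure D4:**
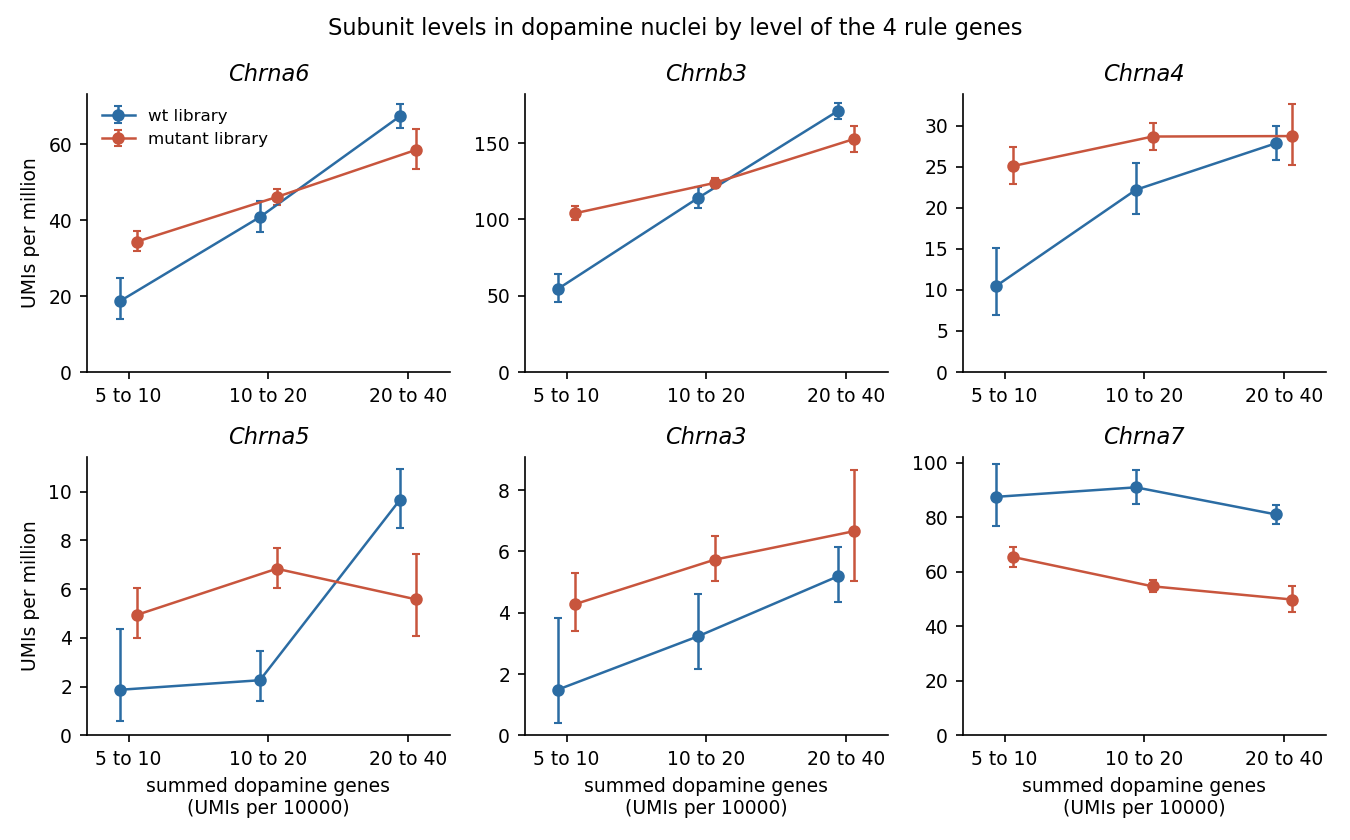
Levels of 6 subunit genes in CPM (axes from 0, exact Poisson 95% intervals) in dopamine nuclei of the wt (blue) and mutant (red) library, binned by the summed rule genes in UMIs per 10000. Chrna6 and Chrnb3 cross, with the mutant library higher at 5 to 10 and lower at 20 to 40, while Chrna7 is lower in the mutant library in all 3 bins.

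Sex-linked tags gave a rough separation of the pooled mice, added after the data were seen. Dopamine nuclei with more Y-linked than Xist tags (201 wt, 322 mutant) came mainly from the male mouse of each pool, and those with more Xist than Y-linked tags (1075 and 2502) mainly from the females. The former were shallower, with medians of 15497 wt and 9974.5 mutant UMIs against 26867 and 20769.5. Chrna7 was lower in the mutant library in both, at 82.8 and 59.2 CPM in the first (0.715, 0.600 to 0.851) and 84.2 and 57.0 in the second. Chrna6 had ratios of 0.868 (0.693 to 1.09) and 0.750. Chrnb3 differed in direction, at 118.6 and 135.2 CPM among nuclei with more Y-linked tags (1.14, 1.00 to 1.30) and 154.4 and 121.0 among the others (0.784). Within the wt library alone, nuclei with more Xist tags held 2.12-fold more Chrna5 (1.24 to 3.94), 1.30-fold more Chrna6 (1.11 to 1.53) and Chrnb3 (1.18 to 1.44), and 1.35-fold less Chrna4 (1.11 to 1.63). For Chrna6 and Chrnb3 these wt differences between mice of 1 genotype were about as large as those between the libraries. The wt ratio of Chrna7 was 1.02 (0.905 to 1.15). In the mutant library Chrnb3 went the other way, with a ratio of 0.895 (0.818 to 0.980). The mutant ratios of Chrna5 (1.41, 0.869 to 2.44), Chrna6 (1.12, 0.955 to 1.33) and Chrna4 (0.896, 0.743 to 1.09) had intervals that hold 1.

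**Figure D5:**
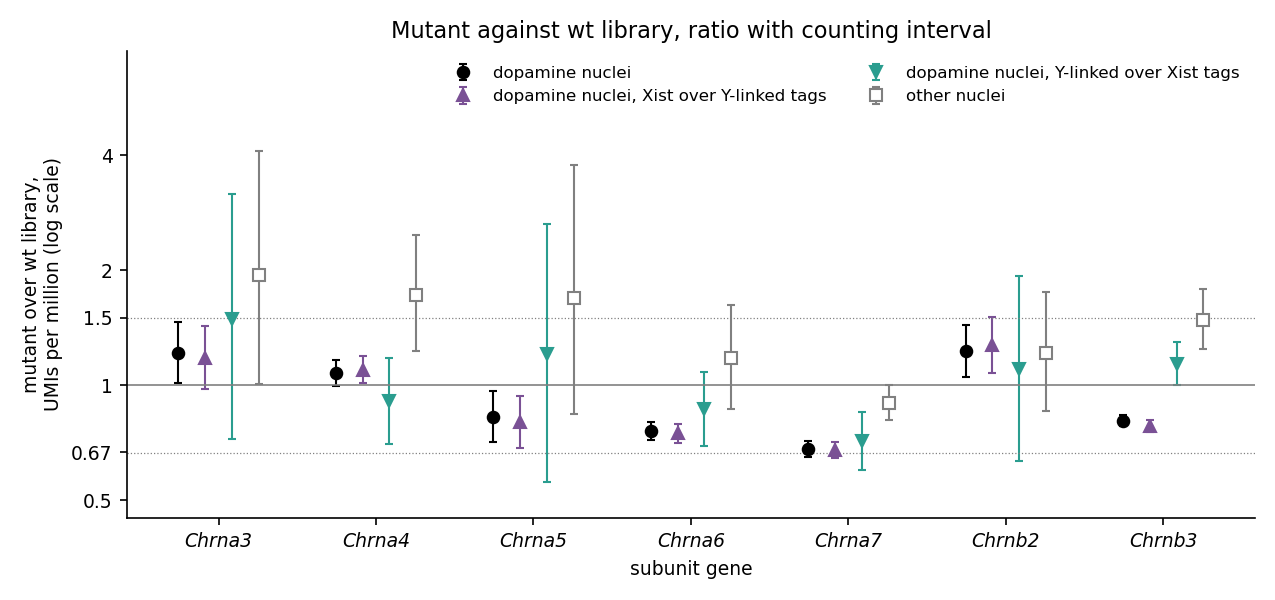
Ratio of the mutant to the wt library (log axis, exact 95% intervals for counting error) for the 7 measured subunit genes in all dopamine nuclei, in dopamine nuclei with more Xist or more Y-linked tags, and in other nuclei. Dotted lines mark 1.5-fold; Chrna7 lies below 1 in all 4 sets, and Chrnb3 lies below 1 in all dopamine nuclei (0.809) and above 1 in other nuclei (1.49).

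Within the mutant library the nuclei with and without Hox tags also differed. Those with a tag (1889) held Chrna7 at 51.8 CPM and those without (896) at 74.2 CPM, a ratio of 0.698 (0.652 to 0.748). Chrna5 was 2.01-fold higher in nuclei with a tag (7.0 against 3.49 CPM, 1.52 to 2.70) and Chrna3 1.43-fold higher (5.87 against 4.10). Chrna6 stood at 43.7 and 45.2 CPM and Chrnb3 at 118.2 and 133.1. Nuclei with a tag were deeper before thinning, with a median of 22583 against 14607.5 UMIs, and the part of depth was not tested. Splitting by tags of Lef1 and Pax3 (986 with, 1799 without) gave Chrna7 at 51.5 and 61.1 CPM and Chrna5 at 7.19 and 5.46.

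In the other nuclei 0 of 7 members were called between the libraries, beside 1% of 13491 genes called higher and 1.94% called lower (2.94% in all). Chrnb3 stood at 21.1 CPM in wt and 31.3 in mutant (1.49-fold higher, 1.24 to 1.79), Chrna4 at 5.87 and 10.1 (1.73-fold higher, 1.23 to 2.47) and Chrna7 at 72.5 and 65.3 (ratio 0.900, 0.812 to 0.999). The other nuclei include those just under the dopamine rule, where Chrnb3 stood at 54.9 CPM in wt and 88.3 in mutant. Those nuclei held 100 of the 151 wt and 413 of the 610 mutant UMIs of Chrnb3 in the other nuclei. Most of the Chrnb3 signal of this class thus came from nuclei near the limit. The difference without them was not tested.

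The other genes of acetylcholine signalling came from a list of 26, of which Chrnd and Slc18a3 had no row in the table and 15 were measured between libraries in dopamine nuclei. Of these, 0 were higher and 1 was lower in the mutant library, beside 1.99% and 1.46% of all genes, with a median log2 ratio of -0.11. The lower gene was Lypd1, a membrane-anchored protein that binds nicotinic receptors and dampens them, at 25.6 CPM in wt and 13.8 in mutant dopamine nuclei (1.86-fold lower). Lypd1 was also the 1 gene of the list called higher in dopamine than in other wt nuclei (25.6 against 11.5 CPM), while in the mutant library it stood at 13.8 against 15.9 CPM. Other accessory proteins were nearer: Ly6h, the most abundant of them, stood at 95.5 and 103.4 CPM, and Ric3, a chaperone of receptor assembly, at 62.1 and 59.1.

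Among the remaining roles, the muscarinic receptor gene Chrm3 stood at 170.8 CPM in wt and 137.9 in mutant dopamine nuclei, and Ache, which breaks acetylcholine down, at 42.1 and 52.0. Chat, the synthesis enzyme, was at 0.482 and 0.378 CPM. Of the other nicotinic subunits only Chrna9 had 50 UMIs, at 1.12 and 0.684 CPM. Against the other nuclei, 8 of 15 list genes were called lower in wt dopamine nuclei and 6 of 16 in mutant ones, beside 8.2% and 4.93% of all genes. Among them Chrm3 stood at 170.8 against 576.2 CPM in wt nuclei.

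The genes within 200 kb of each member were also compared between the libraries. Kcnn3, a potassium channel gene and 1 of 8 genes near Chrnb2, was the only measured neighbour of any member called. It stood at 449 CPM in wt and 280 in mutant dopamine nuclei (1.61-fold lower). Over all genes 3.45% of 16324 were called. The number of measured neighbours is not given here, so this call is not read as a result about the locus. Adar, which overlaps Chrnb2, stood at 156.7 and 184.8 CPM. Ireb2, beside Chrna5 and Chrna3, stood at 71.6 and 74.2 CPM.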

How the data were processed

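The labels' protocols give FACS-sorted single nuclei of mouse midbrain and 10x Single Cell 3′ v3 libraries. The values are raw counts of UMIs, 1 table for the series, as deposited by the authors. Cell Ranger 3.1.0 and mm10 are named in the submitters' processing notes, with no role stated. The sources used here do not give the counting of introns, the use of strand or the filters on nuclei. The start of each column name gave the genotype, and the table pools the lanes.

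Here Python 3.11.15 with numpy 2.4.6, scipy 1.17.1, pandas 2.3.3 and matplotlib 3.10.9 was used. CPM is the summed count of a gene in a class over the total of that class. Totals of dopamine nuclei were 39383984 UMIs in wt and 68742978 in mutant, so 1 UMI was 0.0254 and 0.0145 CPM, and those of other nuclei were 7156906 and 19458348. Intervals are at 95% and exact: binomial for shares and for ratios (the split of 2 counts), Poisson for levels. Calls used a log2 ratio with 5 CPM added, a limit of 1.5-fold and at least 50 UMIs over both groups. Shares came from nuclei thinned to 5000 UMIs without replacement. No test was run, since each genotype is 1 library. The genotype comparison was also simulated with Poisson counts, the same counting error that the intervals assume. There 95.56% of the intervals over 16324 genes held the true ratio, and 0 of 16124 unaltered genes were called. Of 50 genes each, 70% altered 2-fold, 90% altered 4-fold, 62% lowered to 0.5 and 74% lowered to 0.25 were called. The simulation held no variation between mice or libraries. It therefore cannot show how often such variation alone would pass the limit.

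All 8 members are given in full. Of the acetylcholine list, genes past 1.5-fold and the most abundant of each role are named, and Chat, Chrna9 and Lypd1 beside other nuclei were added after their values were seen. Genes alike were the 5 of highest Pearson r for Chrna6, Chrnb3, Chrna5 and Chrna4 over classes of at least 20 nuclei, of which 1 is not reported here, and of the neighbours those named were chosen after their values were seen. The members, lists, gene groups and comparisons were chosen with earlier results of these data known. Alternatives covered the rule, depth, thinning, pseudocount, scaling, filters and sex-linked tags.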

Additional observations from a re-analysis of the deposited data

Results flagged for a closer look

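The difference in Chrnb3 between libraries went opposite ways in the classes of nuclei, each taken as a whole. In dopamine nuclei the ratio of mutant to wt library was 0.809 (0.782 to 0.836), and in other nuclei it was 1.49 (1.24 to 1.79). The difference between these ratios was not tested, because each genotype is 1 library. The direction also turned within dopamine nuclei. In bins of the rule genes the ratio was 1.91 at 5 to 10, 1.09 at 10 to 20 and 0.894 at 20 to 40. The ratio was 1.14 in dopamine nuclei with more Y-linked tags and 0.784 in those with more Xist tags. Nuclei just under the dopamine rule held 100 of the 151 wt and 413 of the 610 mutant UMIs of Chrnb3 in other nuclei.

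The difference in Chrna7 between dopamine and other nuclei also went opposite ways in the libraries. Its level in dopamine nuclei was 1.16 times that in other nuclei in the wt library (1.05 to 1.27) and 0.875 times in the mutant library (0.821 to 0.933). The difference between these ratios was not tested.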

How the results depend on the processing

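No paired analysis was possible because each genotype is 1 library, and the labels give lanes but no replicate numbers of animals. Calls in opposite directions arose between libraries for Chrna6 (log2 ratios of 0.73 in the bin from 5 to 10 and -0.95 in the bin at 40 or more) and Chrnb3 (0.87 and -0.77). In the bin at 40 or more, with 7 mutant nuclei, the intervals of both ratios hold 1. Chrna7 between mutant subtypes was 1.10 among nuclei with Y-linked and no Xist tags (15 tegmental-type) and -1.13 without nuclei with glial tags. Of the counts and differences under alternatives, 149 stayed near the reported value and 33 moved, and of the log2 ratios and shares of single genes 513 stayed and 153 moved.

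Between libraries in dopamine nuclei, 0 members were lower. With the rule at 10 UMIs per 10000, in nuclei with Y-linked and no Xist tags (280 mutant, 160 wt), and in the bins from 10 to 20 and 20 to 40, 1 was lower, each time Chrna7. In the bin at 40 or more, with 7 mutant nuclei, 3 were lower (Chrna6, Chrna7, Chrnb3). Those calls rest on 2, 1 and 6 mutant UMIs, and each of the ratios had an interval that holds 1. The count higher went from 0 to 3 in the bin from 5 to 10 (Chrna4, Chrna6, Chrnb3) and to 1 in that from 10 to 20 (Chrna5). The log2 ratio of Chrna7 was negative in 19 of 19 alternatives, from -1.88 (the bin at 40 or more, from 1 mutant UMI) to -0.39. That of Chrna6 was negative in 17 and that of Chrnb3 in 15 of 19. In the mutant library, 2 members in place of 4 (Chrna6, Chrnb3) were higher in dopamine than other nuclei with the rule at 10. With 1 CPM added 5 were higher in each library (Chrna3 too), and with 20 CPM 3 (without Chrna5).

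Of the subtype calls in wt, 1 higher became 3 without nuclei holding glial or vascular tags (Chrna3, Chrna5, Chrnb2) and among nuclei with Xist and no Y-linked tags (Chrna3, Chrna4, Chrna5), 2 among nuclei with Y-linked and no Xist tags (Chrna4, Chrnb3) and with 1 CPM added (Chrna3, Chrna5), and 0 with 20 CPM added or when 2 more list genes were required. The 1 lower became 2 among nuclei with Y-linked and no Xist tags (Chrna6, Chrna7). In the mutant library 0 higher became 1, Chrna3, with the rule at 3, without nuclei with glial tags or over 50000 UMIs, among nuclei with Xist and no Y-linked tags, with nuclei weighted equally and with 1 CPM added, and 1, Chrna7, among nuclei with Y-linked and no Xist tags. There 0 lower became 1, Chrna7, without nuclei with glial tags and among those with Xist and no Y-linked tags, and 2 (Chrna7, Chrnb2) when 2 more list genes were required.

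The co-detection difference of 17.4 points in wt was 10.2 with thinning to 2000 UMIs, 38.1 without thinning and 39.7 in the bin from 5 to 10, where 12 nuclei held Chrna6. In the mutant library 11.8 points became 19.9 without thinning and 5.07 in the bin from 20 to 40. Of the shares of nuclei with a tag, 3 members had intervals apart between libraries, with no share over all genes to set beside that count. The count was 1 with thinning to 2000 UMIs (Chrna3) and 2 with thinning to 10000 (Chrna6, Chrna7). It was 0 without nuclei with glial or vascular tags, and 1 among nuclei with Y-linked and no Xist tags (Chrnb3). The split by tag majority, the strict oligodendrocyte gate and the bins of co-detection were chosen after seeing the data. Depth limits Chrnb4, Chrna3 and Chrna5 most.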
